A study of Mus musculus with 20 samples.

Results

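The matrix metalloproteinases (Mmp genes), the ADAMTS proteases (Adamts genes) and the tissue inhibitors of metalloproteinases (Timp genes) were followed in the mouse tibia under dexamethasone (DEX), a synthetic glucocorticoid, and under axial loading of the bone. Members were the genes whose symbol is Mmp, Adamts or Timp followed by a number, without Mmp8, Mmp9, Adamts2, Adamts3 and Adamts14. This gave 41 of the 54446 genes in the deposited counts, namely 21 Mmp, 16 Adamts and 4 Timp genes. The 20 RNA-seq libraries were made from pulverized tibiae of 3-month-old male C57BL/6J mice, a tissue that the study's text describes as cortical bone with its periosteum. Mice received 1 mg/kg DEX or distilled water (vehicle) by subcutaneous injection for 5 days. Each session applied 40 cycles of axial load at -13 N to the left tibia, whereas the right one of the same mouse stayed unloaded as the control. The labels give loading on days 1 and 3. The study's description of this experiment states 3 sessions a week, with tibiae taken 4 h after a last session on day 5. By the labels the last session was on day 3, so the time from loading to collection is not settled. The 4 groups thus were unloaded and loaded tibiae of vehicle-treated and of DEX-treated mice, with 5 libraries each.

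MMPs are zinc proteases that are secreted or held at the cell surface as inactive precursors, and together they can cleave most proteins of the extracellular matrix. Collagenases cut fibrillar collagen, gelatinases degrade the denatured chains, stromelysins act on proteoglycans and activate other MMPs, and membrane-type MMPs work at the cell surface. ADAMTS proteases cleave proteoglycans such as aggrecan and versican, cartilage oligomeric matrix protein (COMP), fibrillin-rich microfibrils or von Willebrand factor, depending on the member. TIMPs block the active site of these enzymes. In bone, such proteases take part in collagen removal by osteoblast-lineage cells and osteoclasts, in the resorption of growth plate cartilage and in remodelling around osteocytes.

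Library totals ran from 4641425 to 13031968 expected counts, and expression levels are in CPM, a scaling of counts to the same library size with edgeR's TMM factors. A sample named DEX-4 was set aside in the study as an outlier, with no word on which tibia it was. Its plots of single values appear to hold fewer points for unloaded than for loaded DEX tibiae, so unloaded DEX replicate 4 was taken to be that sample and left out of the tests and of the values below. Loaded DEX replicate 4 had the lowest total of the 20 libraries and the most genes with a count. Vehicle libraries carry the numbers 1, 2, 4 and 5 and one is unnumbered, because its number in the counts matches no label. All 10 osteoblast and all 7 osteocyte markers were detected in each group, and 8 of 8 skeletal muscle markers were also detected in each group, with a summed level of 2399 to 36223 CPM. In these bulk samples, fewer cells of a type and less RNA per cell cannot be told apart. The labels do not say whether the libraries of a group came from separate mice, but a figure legend of the study for these data counts 4 to 5 mice per group. Read that way, p-values measure the spread between these mice, and library totals set only the counting error.

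Of the 41 genes, 32 had 10 or more counts in 5 or more of the 20 libraries, and all 32 were tested in each of the 5 comparisons. These were 14 of 21 Mmp, 14 of 16 Adamts and all 4 Timp genes. Each of the 32 reached 10 counts in 13 or more of the 20 libraries. The other 9 were Mmp1a, Mmp1b, Mmp7, Mmp10, Mmp20, Mmp21, Mmp27, Adamts13 and Adamts19. None of these 9 had more than 24 counts in a library, and Mmp10 had 3 counts and Mmp1b 4 counts in all 20 libraries together. These 9 were not tested in the main comparisons. Adamts13, the gene of the protease that cleaves von Willebrand factor, is singled out after its values were seen, with 0 to 2 counts in the vehicle libraries and 3 to 14 counts in the DEX libraries in use. In an edgeR fit without the count filter, Adamts13 (adjusted p = 0.0425) and Mmp20 (adjusted p = 0.0312) were called higher with DEX in loaded tibiae, where 20.2% of the 44681 genes in that fit were called in either direction. Mmp20 had 0 to 2 counts in loaded vehicle libraries and 1 to 10 counts in loaded DEX libraries, the highest in replicate 4. In unloaded tibiae, edgeR without the count filter called neither Adamts13 (adjusted p = 0.136) nor Mmp20 (adjusted p = 0.388) for DEX.

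Levels of different genes were compared per length of exon, as CPM per kb, in unloaded tibiae of vehicle-treated mice. Mmp2, the gene of gelatinase A, was highest with 148 ± 39.5 CPM per kb (SD, n = 5), followed by Timp2 with 114 ± 14.6 CPM per kb (SD, n = 5). The ranges of Mmp2 and Timp2 overlapped, so their order does not exceed the spread. Next came Mmp13, the collagenase of mouse bone and cartilage, with 63.2 ± 10.5 CPM per kb (SD, n = 5), and Mmp14, which encodes the membrane-type protease MT1-MMP, with 46.4 ± 23.6 CPM per kb (SD, n = 5). Mmp13 and Mmp14 also overlapped, and so did Mmp14 and Timp3 with 36.4 ± 4.99 CPM per kb (SD, n = 5). Timp1 followed with 16.6 ± 3.09 CPM per kb (SD, n = 5), below all 5 Timp3 values. The highest Adamts gene was Adamts10, a protease that binds fibrillin microfibrils, with 9.30 ± 2.25 CPM per kb (SD, n = 5), and Adamts9 and Adamts5 had 7.20 and 6.70 CPM per kb. The ranges of these 3 genes overlapped, so their order does not exceed the spread either. At the lower end, Mmp3, the gene of stromelysin-1, had 0.893 ± 0.506 CPM per kb (SD, n = 5), and Mmp12, the gene of macrophage elastase, had 0.185 ± 0.0552 CPM per kb (SD, n = 5).

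**Figure D1:**
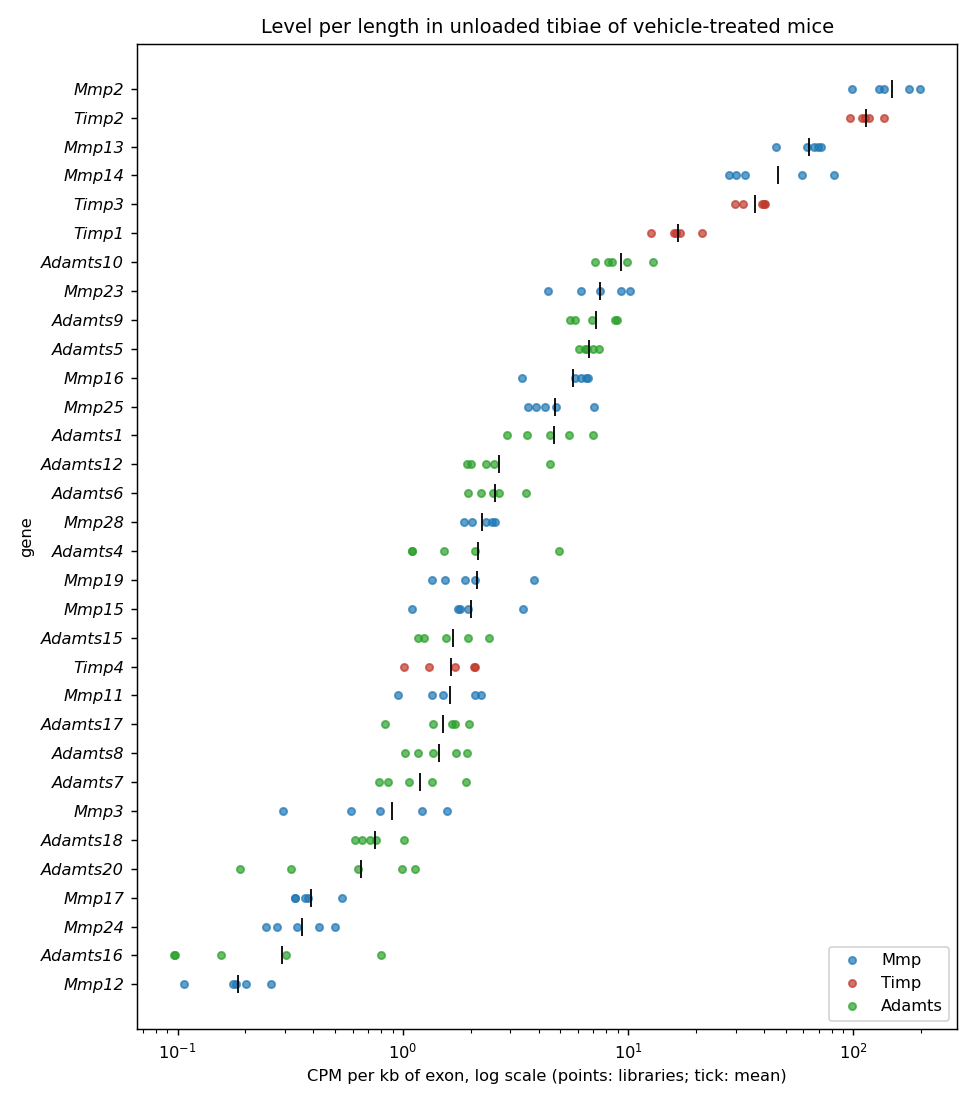
CPM per kb of exon (horizontal, log scale) of the 32 genes that passed the count filter (vertical) in the 5 unloaded tibia libraries of vehicle-treated mice, with points for libraries, black ticks for means and colours for the Mmp, Adamts and Timp families. Mmp2, Timp2, Mmp13, Mmp14, Timp3 and Timp1 lie above the remaining 26 genes by their means.

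The comparison of DEX with vehicle asks how the glucocorticoid changes gene expression in bone, and it was made in loaded tibiae first. There, 13 of the 32 genes were lower and 4 were higher with DEX (edgeR quasi-likelihood test, Benjamini-Hochberg adjusted p under 0.05). Of all 19780 genes tested, 8.35% were lower and 12.9% were higher with DEX. The 13 lower genes were Mmp2, Mmp3, Mmp11, Mmp14, Mmp16, Mmp23, Adamts4, Adamts7, Adamts9, Adamts10, Adamts12, Timp1 and Timp2, and the 4 higher genes were Mmp25, Adamts20, Timp3 and Timp4. The median log2FC was -0.39 over the 32 genes and 0.0040 over all genes tested. For 14 of the 32 genes, the libraries of the 2 groups did not overlap, which was the case for 16.5% of all genes tested. At an unadjusted edgeR p under 0.05 there were 21 of the 32 genes, against 37.2% of all genes. The DESeq2 Wald test called the same 17 genes and Mmp13 and Mmp19 as well. Over the whole table it called 5651 of the 19780 genes, against 4206 with edgeR.

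In unloaded tibiae, 7 of the 32 genes were lower with DEX, namely Mmp2, Mmp15, Mmp16, Mmp23, Adamts9, Timp1 and Timp2, and only Mmp25 was higher. Among all 19738 genes tested there, 3.99% were lower and 2.86% higher. Among the 32 genes, the DEX and vehicle libraries did not overlap for these 8 only, against 10.8% of all genes tested. At an unadjusted edgeR p under 0.05 there were 13 of the 32 genes, against 24.6% of all genes. The DESeq2 Wald test called the same 8 genes and Mmp14, and 2374 of all 19738 genes, against 1351 with edgeR. The 32 genes had a median log2FC of -0.38, against 0.033 for all genes tested. Without unloaded DEX replicate 3, only Mmp2 was called, and the calls over all genes fell likewise, to 0.633%. With unloaded DEX replicate 4 included there were 10 calls among 31 genes tested, and 15.2% of all genes were called. Both tibiae were taken from each mouse, so the comparisons for DEX, and the interaction that tests their difference further on, share animals. The labels do not say which libraries come from the same mouse.

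Other readouts differed between DEX and vehicle libraries along with these genes. Genes of olfactory and vomeronasal receptors, which bone is not known to use and which here stand for background reads, summed to 261 to 932 CPM in loaded vehicle libraries and to 1097 to 6494 CPM in loaded DEX libraries. With the log2 of this sum as a covariate, 1 of the 32 genes was called in loaded tibiae, namely Mmp16 (log2FC = -1.73, edgeR adjusted p = 0.0480), and 0.157% of all genes were called. The sum and the treatment cannot be told apart there because the groups do not overlap. Among the 17 called genes, the fold change moved by more than 1.5 times under the covariate for Mmp2 (log2FC = -1.20), Mmp3 (-1.79), Mmp14 (-0.87), Timp4 (1.39) and Adamts10 (0.16), with edgeR adjusted p-values of 0.314, 0.261, 0.233, 0.233 and 0.830. Mmp12, which was not called, changed sign, to a log2FC of -0.44. In unloaded tibiae the sums were 391 to 1364 CPM for vehicle and 800 to 2918 CPM for DEX, and 9 of the 32 genes and 13.5% of all genes were called with the covariate. Mmp15 lost its call there (log2FC = -0.99, edgeR adjusted p = 0.0576), Mmp19 (1.04, adjusted p = 0.0326) and Adamts18 (-1.04, adjusted p = 0.0452) gained one, and the median log2FC over the 32 genes went from -0.38 to -0.11. The summed level of 10 osteoblast markers was 64746 to 96435 CPM in loaded vehicle and 5062 to 24247 CPM in loaded DEX libraries. For 14 chondrocyte markers the sums were 3060 to 5038 CPM and 317 to 1416 CPM, and for 8 markers of tendon, periosteum and fibroblasts they were 1967 to 4304 CPM and 533 to 1357 CPM. The 8 neutrophil markers went the other way, with 4197 to 6215 CPM in loaded vehicle and 6964 to 16733 CPM in loaded DEX libraries. The 7 osteocyte markers summed to 1558 to 2583 CPM in loaded vehicle and to 708 to 1457 CPM in loaded DEX libraries, and to 1871 to 2633 CPM and 1052 to 1722 CPM in the unloaded ones. The loaded calls went against the sum for Fgf23, which was called higher, whereas Pdpn, Phex, Dmp1 and Sost were called lower. In unloaded libraries, the chondrocyte sums were 1848 to 6897 CPM with vehicle and 556 to 2064 CPM with DEX, but the median log2FC over the 12 chondrocyte markers tested was -0.26 and only Col11a1 was called. There, the osteoblast sums were 42299 to 146040 CPM and 7511 to 36517 CPM, the tendon, periosteum and fibroblast sums 1502 to 3602 CPM and 756 to 963 CPM, and the neutrophil sums 4899 to 7120 CPM and 8705 to 15861 CPM. The 8 osteoclast markers summed to 693 to 1300 CPM in loaded vehicle and to 428 to 700.2 CPM in loaded DEX libraries, where Atp6v0d2 and Ctsk were called lower. For 8 macrophage markers the loaded sums were 673 to 800.0 CPM and 337 to 757 CPM, and Adgre1, Cd68 and C1qc were called lower. In unloaded tibiae, edgeR called no marker of these 2 lists. The 8 skeletal muscle markers summed to 8184 to 36223 CPM with vehicle and to 2399 to 17193 CPM with DEX in unloaded libraries (medians 28931 and 3902 CPM), and to 3947 to 19215 CPM and 7511 to 21782 CPM in the loaded ones, where Myh1 was called higher. Of the endothelial markers Cdh5 was called lower, and of the adipocyte markers Cidec was called higher, in loaded and in unloaded tibiae. The median log2FC over the 6 adipocyte markers was -0.0047 in loaded and 0.35 in unloaded tibiae. Their sums had medians of 275 CPM with vehicle and 210 CPM with DEX in loaded libraries, and of 286 and 267 CPM in unloaded ones, so Cidec went against the sum. No marker of these lists was at 0 throughout a group. The part of the marker differences in the results was not tested.

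**Figure D2:**
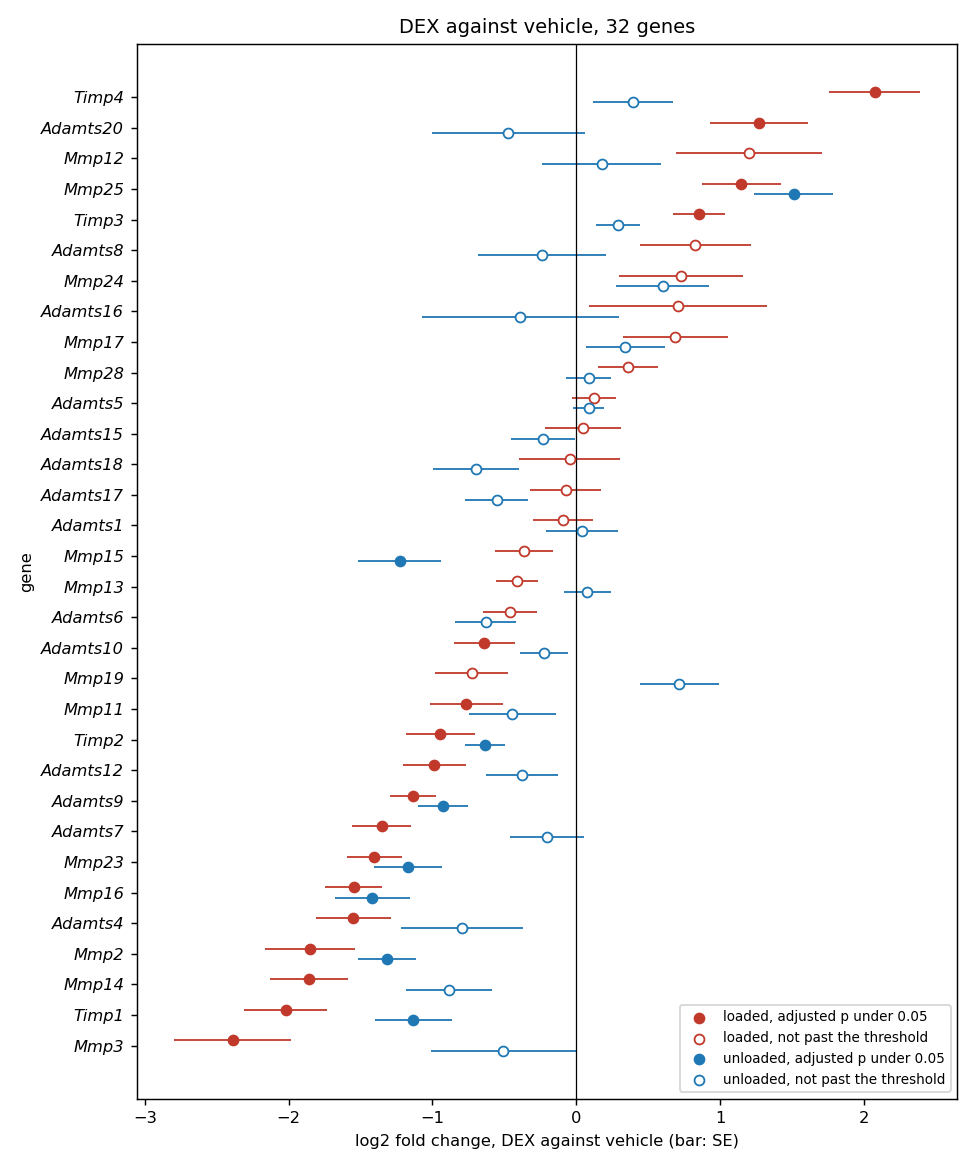
Log2 fold change of DEX against vehicle (horizontal, bars are SE) for the 32 genes (vertical), ordered by the value in loaded tibiae, with red for loaded (5 DEX and 5 vehicle libraries) and blue for unloaded tibiae (4 DEX and 5 vehicle libraries). Filled points passed the adjusted threshold, 17 in loaded and 8 in unloaded tibiae, and Mmp3 and Timp4 mark the lower and upper ends in loaded tibiae.

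Among the secreted enzymes of collagen breakdown, the gelatinase gene Mmp2 was lower with DEX in both kinds of tibiae. Mmp2 stood at 331, 436, 666, 459 and 595 CPM in unloaded vehicle libraries, 1030.0, 527, 521, 472 and 768 in loaded vehicle libraries, 234, 206, 183 and 169 in unloaded DEX libraries, and 263, 224, 209, 103 and 96.1 in loaded DEX libraries. All DEX libraries lay below all vehicle libraries. Mmp2 fell in loaded tibiae (log2FC = -1.85, SE 0.31, edgeR adjusted p = 0.00326) and in unloaded tibiae (log2FC = -1.32, SE 0.20, edgeR adjusted p = 0.00781). It was the only one of the 8 calls in unloaded tibiae that held whichever library was left out.

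The collagenase gene Mmp13 did not pass the threshold for DEX in either kind of tibia. Mmp13 was at 192, 186, 121, 166 and 178 CPM in unloaded vehicle libraries, 252, 220.0, 267, 309.7 and 287 in loaded vehicle libraries, 198, 178, 139 and 190.2 in unloaded DEX libraries, and 239, 191, 191, 170.1 and 185 in loaded DEX libraries. With loading and vehicle, the 5 libraries were above those of the other groups, except that loaded DEX replicate 1 exceeded loaded vehicle replicate 2. In loaded tibiae the difference had log2FC = -0.41 (SE 0.15), edgeR adjusted p = 0.0615, and DESeq2 gave an adjusted p of 0.0108.

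Mmp3, whose product stromelysin-1 degrades proteoglycans and activates other MMPs, had the largest difference between DEX and vehicle in loaded tibiae among the 32 genes. Mmp3 measured 0.530, 1.06, 2.83, 2.19 and 1.43 CPM in unloaded vehicle libraries, 9.75, 3.91, 5.63, 5.56 and 13.1 in loaded vehicle libraries, 0.965, 1.13, 0.618 and 1.69 in unloaded DEX libraries, and 2.68, 1.18, 0.962, 0.787 and 1.41 in loaded DEX libraries. These levels correspond to 40 to 152 counts in loaded vehicle libraries and to 5 to 20 counts in loaded DEX libraries. The 5 loaded vehicle libraries were above all others in use, while the other 3 groups overlapped each other. With log2FC = -2.39 (SE 0.41), edgeR adjusted p = 0.00333, the level was 5.24 times lower with DEX in loaded tibiae. Mmp11, the gene of stromelysin-3, was also lower there (log2FC = -0.76, SE 0.25, edgeR adjusted p = 0.0468). That call was lost in 7 of 10 fits that left out a library, those without loaded DEX replicate 1, 2, 4 or 5 and those without loaded vehicle replicate 1, 2 or the unnumbered one, with edgeR adjusted p-values up to 0.112.

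Of the 6 membrane-type genes, Mmp14 and Mmp16 were lower and Mmp25 was higher with DEX in loaded tibiae, and Mmp15, Mmp16 and Mmp25 passed the threshold in unloaded tibiae. Mmp14 encodes MT1-MMP, which cleaves collagen at the cell surface and, with TIMP2, activates the gelatinase MMP2. Mmp14 had 167, 179, 489.9, 196 and 352 CPM in unloaded vehicle libraries, 669, 432, 416, 251 and 526 in loaded vehicle libraries, 139, 176, 129 and 147 in unloaded DEX libraries, and 109.9, 174, 140.1, 67.1 and 123 in loaded DEX libraries. In loaded tibiae the groups did not overlap, and unloaded vehicle replicate 4 and the unnumbered one stood above the other 3 unloaded vehicle libraries. Mmp14 fell in loaded tibiae (log2FC = -1.86, SE 0.27, edgeR adjusted p = 0.00163). In unloaded tibiae it did not pass the threshold with edgeR (log2FC = -0.88, SE 0.30, edgeR adjusted p = 0.0959), but DESeq2 called it lower (adjusted p = 0.0301).

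Mmp16 encodes MT3-MMP and had the lowest adjusted p-value of the 32 genes. Mmp16 stood at 29.2, 53.6, 56.2, 50.3 and 57.3 CPM in unloaded vehicle libraries, 31.999, 41.03, 32.04, 46.2 and 34.4 in loaded vehicle libraries, 25.8, 22.98, 14.3 and 10.8 in unloaded DEX libraries, and 11.9, 16.4, 11.5, 14.5 and 7.37 in loaded DEX libraries. Vehicle and DEX libraries were apart in both kinds of tibiae, and unloaded vehicle replicate 1 was the lowest vehicle library. Mmp16 fell with DEX in loaded (log2FC = -1.55, SE 0.20, edgeR adjusted p = 0.000670) and in unloaded tibiae (log2FC = -1.42, SE 0.26, edgeR adjusted p = 0.0124). In unloaded tibiae the call was lost without unloaded DEX replicate 3 (edgeR adjusted p = 0.0617).

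Mmp15, the gene of MT2-MMP, was called in unloaded tibiae but not in loaded tibiae. Mmp15 was at 10.5, 5.94, 18.4, 9.66 and 9.46 CPM in unloaded vehicle libraries, 12.3, 8.21, 7.51, 9.57 and 10.1 in loaded vehicle libraries, 5.07, 4.17, 3.58 and 5.24 in unloaded DEX libraries, and 6.44, 7.45, 6.84, 9.76 and 5.63 in loaded DEX libraries. Unloaded DEX libraries were below all other libraries in use, and the loaded groups overlapped. Unloaded tibiae gave log2FC = -1.23 (SE 0.29), edgeR adjusted p = 0.0278, and the call was lost without unloaded DEX replicate 2 or 3 or without unloaded vehicle replicate 5, with edgeR adjusted p-values up to 0.113, and with background reads as a covariate, as given above. Mmp25 encodes MT6-MMP, also known as leukolysin, a lipid-anchored protease found on neutrophils. Its level ranged from 20.2 to 39.6 CPM in loaded vehicle to 40.7 to 106 CPM in loaded DEX libraries, and from 19.1 to 37.5 CPM in unloaded vehicle to 41.1 to 95.6 CPM in unloaded DEX libraries. Mmp25 thus rose with DEX, with log2FC = 1.15 (SE 0.28), edgeR adjusted p = 0.0154 in loaded and log2FC = 1.51 (SE 0.28), edgeR adjusted p = 0.0125 in unloaded tibiae, beside the higher neutrophil marker sums given above. The unloaded call was lost without unloaded DEX replicate 3 (edgeR adjusted p = 0.0614). Mmp17 and Mmp24, the genes of MT4-MMP and MT5-MMP, were not called in any comparison.

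Of the 4 remaining Mmp genes, which are Mmp12, Mmp19, Mmp23 and Mmp28, only Mmp23 passed the threshold for DEX. Mmp23 encodes a protease held in the membrane by an amino-terminal anchor. Mmp23 measured 10.3, 14.4, 23.8, 17.5 and 21.8 CPM in unloaded vehicle libraries, 26.3, 18.3, 18.02, 16.8 and 19.7 in loaded vehicle libraries, 9.53, 8.56, 6.67 and 6.27 in unloaded DEX libraries, and 7.92, 6.56, 7.69, 9.45 and 4.88 in loaded DEX libraries. No DEX library reached the lowest vehicle library of the same loading state. Mmp23 fell in loaded tibiae (log2FC = -1.41, SE 0.19, edgeR adjusted p = 0.000973) and in unloaded tibiae (log2FC = -1.17, SE 0.23, edgeR adjusted p = 0.0168), where the call was lost without unloaded DEX replicate 3 (edgeR adjusted p = 0.0759). Mmp19, a secreted protease that cleaves basement membrane proteins, had opposite signs of log2FC with DEX in the 2 kinds of tibiae, neither past the threshold. Mmp19 had 4.77, 5.41, 13.5, 6.70 and 7.37 CPM in unloaded vehicle libraries, 31.8, 10.7, 18.02, 13.4 and 22.3 in loaded vehicle libraries, 12.9, 14.98, 9.26 and 12.1 in unloaded DEX libraries, and 9.80, 12.6, 13.9, 10.1 and 10.1 in loaded DEX libraries. The lowest libraries were those of unloaded vehicle tibiae except replicate 4, and the highest were loaded vehicle replicate 1 and the unnumbered one. Loaded tibiae gave log2FC = -0.73 (SE 0.25), edgeR adjusted p = 0.0562 and unloaded tibiae log2FC = 0.72 (SE 0.27), edgeR adjusted p = 0.132. DESeq2 called the loaded difference (adjusted p = 0.0388).

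**Figure D3:**
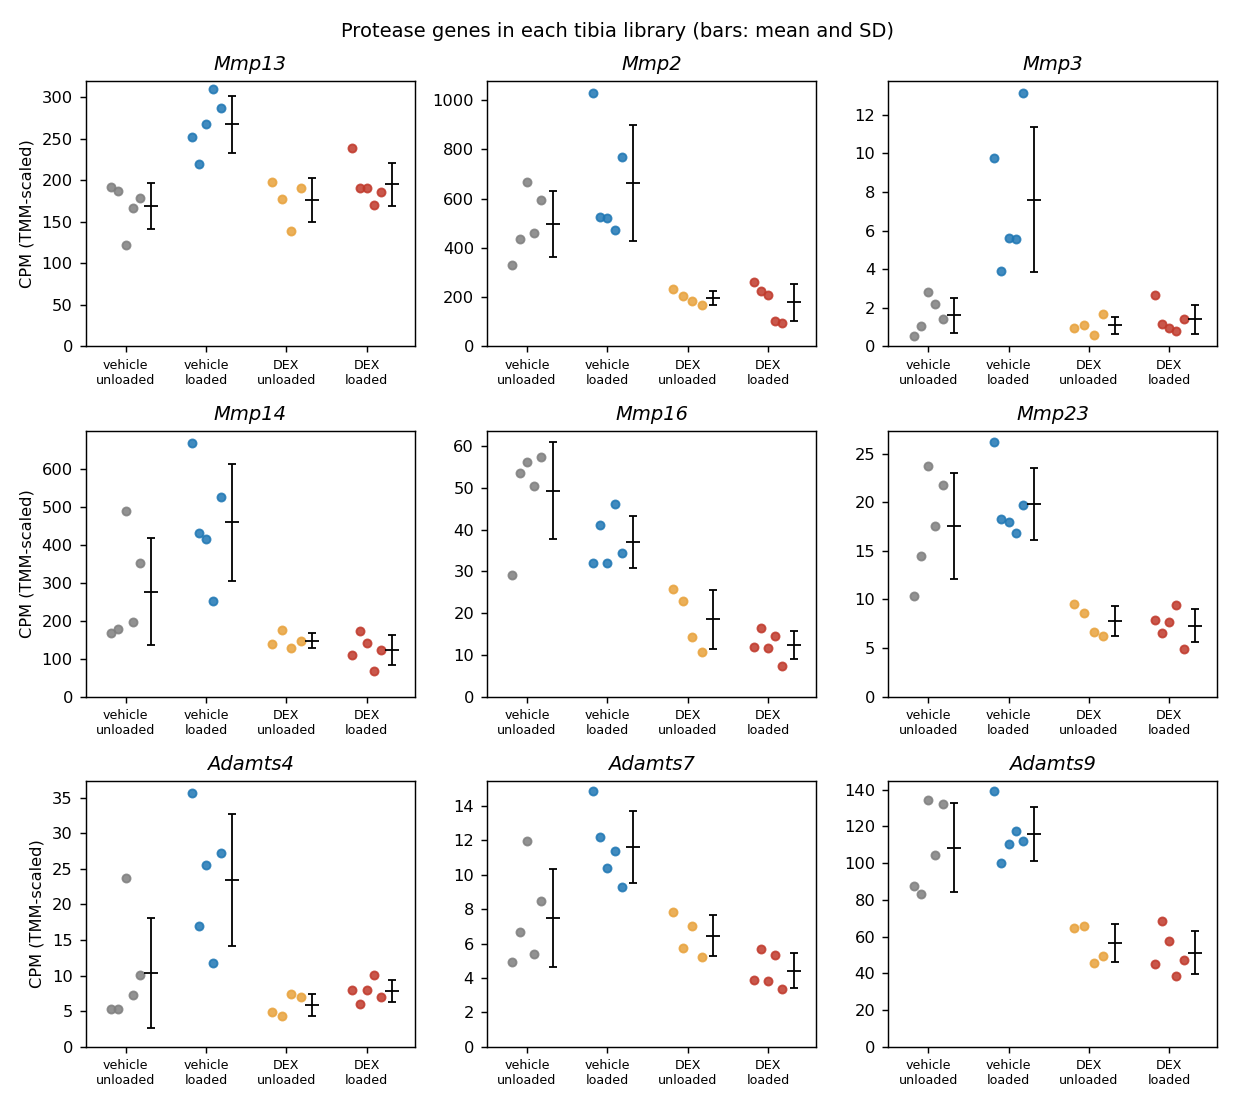
CPM (vertical, linear from 0) of 9 protease genes in the 19 libraries in use, by treatment and loading (horizontal), with points for libraries and bars for the mean and SD. The loaded vehicle libraries of Mmp3 lie at 3.91 to 13.1 CPM, above all other groups, whereas DEX libraries of Mmp2, Mmp16 and Adamts9 lie below all vehicle libraries irrespective of loading.

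The 7 tested Adamts genes of the proteoglycanase group, which cleave aggrecan or versican, did not move together. In loaded tibiae Adamts4 and Adamts9 were lower and Adamts20 was higher with DEX, and Adamts1, Adamts5, Adamts8 and Adamts15 were not called. Adamts4 encodes aggrecanase-1, an enzyme of cartilage breakdown. Adamts4 stood at 5.30, 5.30, 23.8, 7.34 and 10.01 CPM in unloaded vehicle libraries, 35.6, 16.9, 25.5, 11.8 and 27.2 in loaded vehicle libraries, 4.83, 4.28, 7.41 and 6.93 in unloaded DEX libraries, and 7.92, 5.98, 8.01, 10.1 and 6.93 in loaded DEX libraries. Loaded vehicle libraries were above loaded DEX libraries, and unloaded vehicle replicate 4 lay apart from the other 4 of its group. Adamts4 had log2FC = -1.55 (SE 0.26), edgeR adjusted p = 0.00333 in loaded tibiae and did not pass the threshold in unloaded tibiae. Adamts5 encodes aggrecanase-2, the main aggrecan-cleaving protease of mouse cartilage. Adamts5 was at 65.5, 69.2, 70.9, 75.5 and 80.4 CPM in unloaded vehicle libraries, 68.7, 56.6, 67.7, 62.2 and 86.2 in loaded vehicle libraries, 73.7, 82.3, 76.8 and 71.1 in unloaded DEX libraries, and 92.5, 81.3, 65.2, 54.5 and 67.5 in loaded DEX libraries. The 4 groups of Adamts5 overlapped, and no comparison called it.

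Adamts9 encodes a versican-cleaving protease. Adamts9 measured 87.4, 83.4, 135, 104 and 132 CPM in unloaded vehicle libraries, 139, 99.8, 110.5, 117 and 112 in loaded vehicle libraries, 64.7, 65.9, 45.8 and 49.5 in unloaded DEX libraries, and 44.95, 68.3, 57.6, 38.4 and 47.02 in loaded DEX libraries. DEX libraries had at most 68.3 CPM and vehicle libraries at least 83.4 CPM, so the treatments did not overlap. Adamts9 fell in loaded (log2FC = -1.13, SE 0.16, edgeR adjusted p = 0.00130) and in unloaded tibiae (log2FC = -0.93, SE 0.17, edgeR adjusted p = 0.0139), where the call was lost without unloaded DEX replicate 3 (edgeR adjusted p = 0.0683). Adamts1, whose product cleaves versican and aggrecan, showed no call. Adamts1 had 29.04, 15.4, 36.9, 18.9 and 23.8 CPM in unloaded vehicle libraries, 44.8, 23.2, 27.8, 24.4 and 46.05 in loaded vehicle libraries, 24.7, 19.9, 20.4 and 34.8 in unloaded DEX libraries, and 23.6, 34.3, 36.8, 31.2 and 25.5 in loaded DEX libraries. Its groups overlapped throughout. Adamts20 rose with DEX in loaded tibiae (log2FC = 1.27, SE 0.34, edgeR adjusted p = 0.0220), from 1.56 to 6.38 CPM to 6.28 to 10.9 CPM, and loaded vehicle replicate 1 overlapped with the DEX libraries.

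Both tested proteases of COMP, a structural protein of cartilage and tendon, were lower with DEX in loaded tibiae. Adamts7 stood at 4.91, 6.68, 11.9, 5.41 and 8.47 CPM in unloaded vehicle libraries, 14.9, 12.2, 10.4, 11.4 and 9.31 in loaded vehicle libraries, 7.84, 5.75, 7.04 and 5.24 in unloaded DEX libraries, and 3.89, 5.68, 3.85, 5.35 and 3.36 in loaded DEX libraries. Adamts12 was at 20.9, 21.8, 49.3, 25.5 and 27.6 CPM in unloaded vehicle libraries, 76.3, 35.8, 37.04, 34.5 and 49.3 in loaded vehicle libraries, 31.5, 19.6, 20.01 and 17.7 in unloaded DEX libraries, and 28.9, 24.3, 21.9, 22.4 and 16.8 in loaded DEX libraries. For each of them the loaded vehicle libraries were above the loaded DEX libraries, and the unloaded groups overlapped. Adamts7 gave log2FC = -1.35 (SE 0.21), edgeR adjusted p = 0.00203. Adamts12 gave log2FC = -0.99 (SE 0.22), edgeR adjusted p = 0.0114. Neither was called in unloaded tibiae. Of the other 5 Adamts genes, Adamts10 was lower in loaded tibiae (log2FC = -0.64, SE 0.21, edgeR adjusted p = 0.0469), and Adamts6, Adamts16, Adamts17 and Adamts18 were not called. The Adamts10 call was lost in 7 of 10 fits that left out a library, those without loaded DEX replicate 1, 3, 4 or 5 and those without loaded vehicle replicate 1, 2 or the unnumbered one, with edgeR adjusted p-values up to 0.0902.

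All 4 inhibitor genes passed the threshold in loaded tibiae, Timp1 and Timp2 with lower and Timp3 and Timp4 with higher levels under DEX. Timp1 encodes an inhibitor of most secreted MMPs that inhibits MT1-MMP poorly. Timp1 measured 15.1, 18.9, 14.1, 14.6 and 11.2 CPM in unloaded vehicle libraries, 30.5, 12.5, 18.4, 35.3 and 29.8 in loaded vehicle libraries, 10.98, 6.08, 3.58 and 6.18 in unloaded DEX libraries, and 6.58, 4.41, 4.38, 6.93 and 8.13 in loaded DEX libraries. Every DEX library was below every vehicle library, although unloaded DEX replicate 1 (11.0 CPM) came near the unnumbered unloaded vehicle library (11.2 CPM). Timp1 was 4.06 times lower with DEX in loaded tibiae (log2FC = -2.02, SE 0.29, edgeR adjusted p = 0.00156), and gave log2FC = -1.13 (SE 0.27), edgeR adjusted p = 0.0286 in unloaded tibiae. The unloaded call was lost in 6 of 9 fits that left out a library, those without unloaded DEX replicate 2, 3 or 5 or unloaded vehicle replicate 2, 4 or 5, with edgeR adjusted p-values up to 0.0890.

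Timp2, whose product both inhibits MMPs and takes part in the activation of MMP2 by MT1-MMP, was the most abundant inhibitor gene per length in unloaded vehicle tibiae. Timp2 had 376, 437, 531, 423 and 458 CPM in unloaded vehicle libraries, 651, 441, 442, 430.0 and 575 in loaded vehicle libraries, 309, 294, 271 and 259 in unloaded DEX libraries, and 373, 313, 272, 152 and 174 in loaded DEX libraries. Again no DEX library reached a vehicle library, and loaded DEX replicates 4 and 5 were the lowest. The log2FC was smaller than for Timp1, with log2FC = -0.94 (SE 0.24), edgeR adjusted p = 0.0183 in loaded and log2FC = -0.64 (SE 0.14), edgeR adjusted p = 0.0220 in unloaded tibiae. In unloaded tibiae the call was lost without unloaded DEX replicate 2 or 3 (edgeR adjusted p up to 0.0987).

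Timp3 encodes the inhibitor that binds to the matrix and also blocks aggrecanases and ADAM17. Timp3 stood at 319.9, 325, 243, 331 and 263 CPM in unloaded vehicle libraries, 238, 184, 170.2, 214 and 208 in loaded vehicle libraries, 334, 422, 321 and 357 in unloaded DEX libraries, and 477, 414, 341, 262 and 292 in loaded DEX libraries. Loaded vehicle libraries were the lowest of the 4 groups, with 170 to 238 CPM, and did not overlap with loaded DEX or unloaded vehicle libraries. Timp3 rose with DEX in loaded tibiae (log2FC = 0.85, SE 0.18, edgeR adjusted p = 0.00942). Timp4 was at 10.1, 12.3, 5.97, 12.2 and 7.70 CPM in unloaded vehicle libraries, 5.93, 3.03, 3.00, 8.15 and 4.40 in loaded vehicle libraries, 16.9, 8.45, 8.77 and 16.02 in unloaded DEX libraries, and 27.8, 20.3, 14.5, 26.1 and 11.8 in loaded DEX libraries. Timp4, the remaining inhibitor, had the largest rise of the 32 genes in loaded tibiae, 4.21 times (log2FC = 2.07, SE 0.32, edgeR adjusted p = 0.00206), with no overlap between the loaded groups. Neither gene was called for DEX in unloaded tibiae. Exons of Timp3 and Timp4 overlap on the opposite strand with exons of Syn3 and Syn2, and those of Adamts4, Adamts7, Adamts9, Adamts8, Mmp11, Mmp12, Mmp19, Mmp24 and Mmp28 overlap with other genes likewise. The library kit keeps the strand, but whether the counting used it is not given in the sources used here, so reads of the partners may not be separable.

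**Figure D4:**
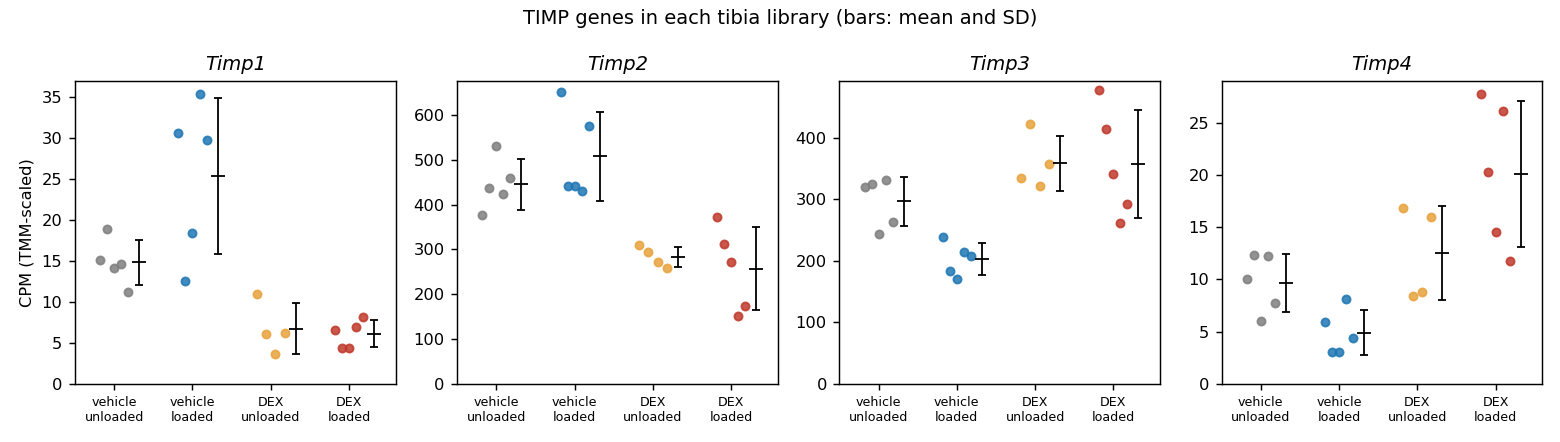
CPM (vertical, linear from 0) of the 4 Timp genes in the 19 libraries in use, by treatment and loading (horizontal), with points for libraries and bars for the mean and SD. With DEX, loaded libraries are lower for Timp1 (4.38 to 8.13 CPM against 12.5 to 35.3 CPM) and Timp2, and higher for Timp3 and Timp4.

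The response of bone to mechanical load was read from loaded against unloaded tibiae after vehicle. No gene passed the adjusted threshold with edgeR, among the 32 or in the whole table. At an unadjusted edgeR p under 0.05 there were 12 of the 32 genes, 8 with a positive and 4 with a negative log2FC, against 9.86% of the 17982 genes tested. DESeq2 called 5 of the 32, with Mmp3, Mmp13 and Mmp19 higher and Timp3 and Adamts8 lower in loaded tibiae, against 0.795% of all genes. For 3 of the 32, which were Mmp3, Mmp13 and Timp3, loaded and unloaded libraries did not overlap, which held for 1.33% of all genes tested. The median log2FC was 0.14 over the 32 genes and -0.0021 over all genes. The 8 osteoclast markers summed to 417 to 605 CPM in unloaded and to 693 to 1300 CPM in loaded vehicle libraries, and the 8 skeletal muscle markers to 8184 to 36223 CPM and 3947 to 19215 CPM. The 8 macrophage markers summed to 511 to 707 CPM and 673 to 800.0 CPM. The 14 chondrocyte markers summed to 1848 to 6897 CPM and 3060 to 5038 CPM, with a median log2FC of 1.37 over the 12 tested, none of them called. Background reads, as the summed olfactory and vomeronasal receptors, had a median of 916 CPM in unloaded and of 313 CPM in loaded vehicle libraries. With their log2 sum as a covariate edgeR again called no gene, and the median log2FC over the 32 turned to -0.030. At an unadjusted p under 0.05 there were 10 of the 32 genes in that fit. Its share over all genes is not given here, and the 9.86% above belongs to the fit without the covariate, so this count has no background to be read against. Mmp3 and Mmp13 then had a log2FC of 1.85 and 0.76, with edgeR adjusted p-values of 0.267 and 0.218. The part of the cell type markers in these differences was not tested.

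Mmp3, Timp3 and Mmp13 had the lowest p-values for loading, with the library values given above. Mmp3 differed between loaded and unloaded vehicle libraries by log2FC = 2.20 (SE 0.42), edgeR adjusted p = 0.170, and DESeq2 gave an adjusted p of 0.000284. For Mmp13 the difference had log2FC = 0.63 (SE 0.15), edgeR adjusted p = 0.229 (DESeq2 adjusted p = 0.0150), with 220 to 310 CPM in loaded and 121 to 192 CPM in unloaded libraries. Timp3 had log2FC = -0.58 (SE 0.14), edgeR adjusted p = 0.229 (DESeq2 adjusted p = 0.0148). Mmp19 had log2FC = 1.32 (SE 0.32), edgeR adjusted p = 0.235 (DESeq2 adjusted p = 0.0143), with unloaded replicate 4 inside the range of the loaded libraries. These edgeR values did not pass the threshold without any of the 10 libraries in turn.

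The promoters of Mmp13 and Mmp3 are shown because both genes carry, close to their start, the letters bound by AP-1, a transcription factor of the Fos and Jun families. The search covered 250 bases upstream of RefSeq starts on GRCm38.p6, on both strands, for TGANTCA (AP-1) and TGTGGTT (RUNX, the family of the osteoblast factor Runx2). Windows were found for 28 of the 41 genes, and 20 of these 28 passed the count filter. TGANTCA was present in 8 of the 28, all in the cluster of Mmp genes on chromosome 9, and in 6.87% of the 27025 genes with a window. Of the 20, it was present in Mmp3, Mmp12 and Mmp13. TGTGGTT was present in 3 of the 28, of which Mmp13 alone passed the count filter, and in 4.40% of genes with a window. The 120 bases before the start are given on the plus strand, 5′ to 3′, with matches in capitals. The matches are a description of letters and say nothing about binding in these samples.
Mmp13, chr9:7272394-7272513: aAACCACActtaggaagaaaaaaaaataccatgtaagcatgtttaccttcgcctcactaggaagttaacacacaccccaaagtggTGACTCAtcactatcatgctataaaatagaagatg
Mmp3, chr9:7445702-7445821: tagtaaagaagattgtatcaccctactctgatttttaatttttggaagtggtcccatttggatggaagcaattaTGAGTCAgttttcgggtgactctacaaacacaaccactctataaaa
In Mmp13 the capitals mark AACCACA, the reverse complement of TGTGGTT, at bases -119 to -113 and TGACTCA at bases -35 to -29 from the start. In Mmp3 they mark TGAGTCA at bases -46 to -40. The Mmp13 gene lies at chr9:7272514-7283331 and Mmp3 at chr9:7445822-7455975, both on the plus strand in GENCODE M21.

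In DEX-treated mice, neither edgeR nor DESeq2 called any of the 22541 genes tested for loading, the 32 included. At an unadjusted edgeR p under 0.05 there were 5 of the 32 genes, against 4.25% of all genes tested. The 3 with the lowest p were Mmp15 (log2FC = 0.64, SE 0.23, edgeR adjusted p = 0.733), Adamts7 (log2FC = -0.57, SE 0.24, edgeR adjusted p = 0.733) and Mmp16 (log2FC = -0.60, SE 0.26, edgeR adjusted p = 0.733). For Mmp15, loaded DEX libraries had 5.63 to 9.76 CPM and unloaded ones 3.58 to 5.24 CPM, without overlap. The share of all genes without overlap is not given for this comparison. Adamts7 and Mmp16 overlapped between loaded and unloaded DEX libraries. Median log2FC was -0.0057 over the 32 genes and 0.021 over all genes. The sums of 8 skeletal muscle markers had medians of 3902 CPM in unloaded and 16041 CPM in loaded DEX libraries, and background reads 1233 and 2020 CPM. For 10 osteoblast markers the medians were 26161 and 14352 CPM, and for 14 chondrocyte markers 1347.5 and 873 CPM. These sums overlapped between the groups, and their part was not tested.

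**Figure D5:**
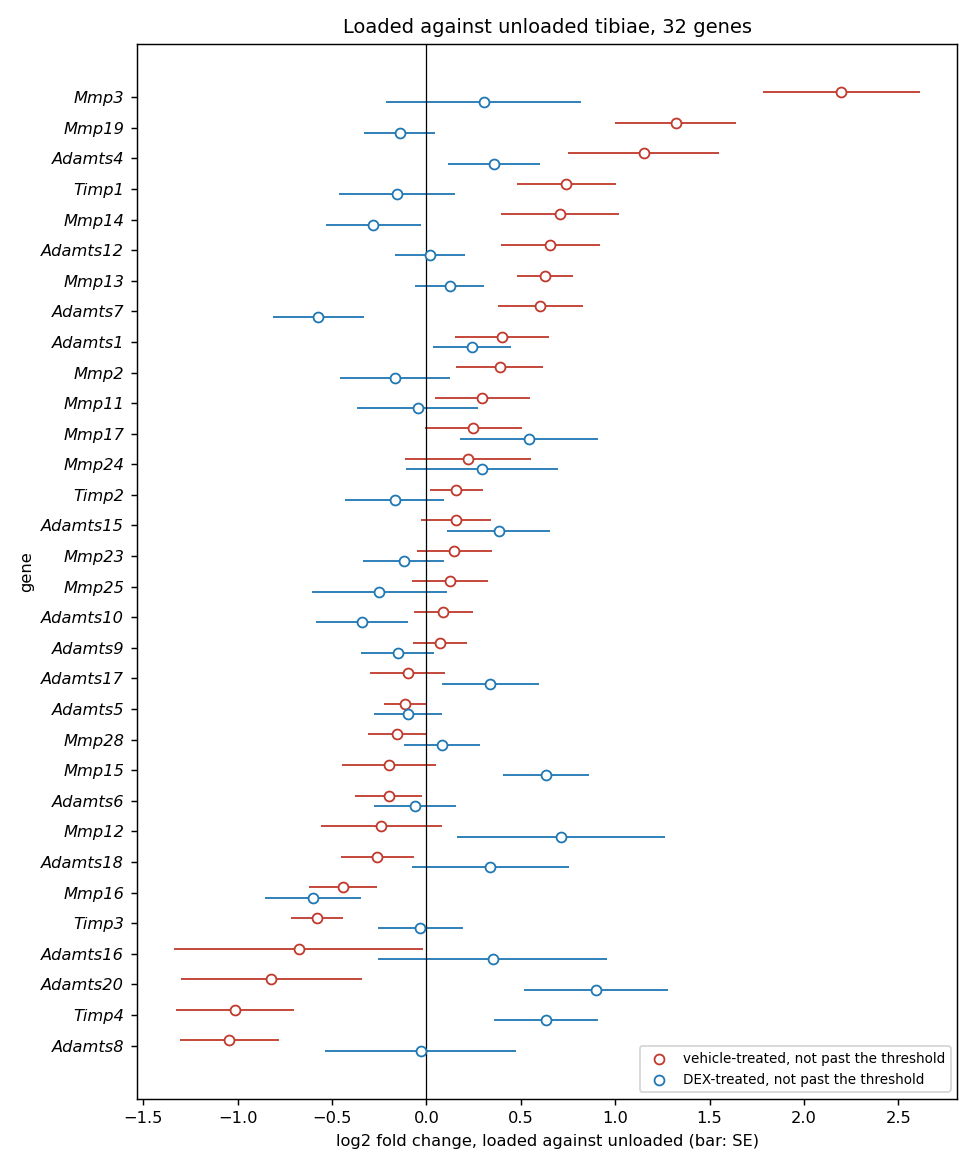
Log2 fold change of loaded against unloaded tibiae (horizontal, bars are SE) for the 32 genes (vertical), ordered by the value in vehicle-treated mice, with red for vehicle-treated (5 and 5 libraries) and blue for DEX-treated mice (5 loaded and 4 unloaded libraries). No point passed the adjusted threshold, and values in vehicle-treated mice span a wider range than in DEX-treated mice, from Adamts8 at the lower to Mmp3 at the upper end.

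Whether loading acted differently under DEX and vehicle was tested as the interaction of treatment and loading. None of the 32 genes, and no gene in the table, passed the adjusted threshold with edgeR, and DESeq2 called none of the 32 and 50 of all genes. At an unadjusted edgeR p under 0.05 there were 10 of the 32 genes, against 12.1% of the 23653 genes tested. The lowest p-values were those of Timp4, Mmp19 and Adamts7. The log2FC of loading was higher under DEX than under vehicle for Timp4 (log2FC = 1.63, SE 0.44, edgeR adjusted p = 0.341) and lower for Mmp19 (log2FC = -1.48, SE 0.40, edgeR adjusted p = 0.341) and Adamts7 (log2FC = -1.18, SE 0.33, edgeR adjusted p = 0.341). For Mmp3 the interaction had log2FC = -1.92 (SE 0.65), edgeR adjusted p = 0.362. The median interaction was -0.17 over the 32 genes and 0.072 over all genes tested, and -0.0064 and -0.012 with background reads as a covariate. Among the marker lists, the median interaction was -2.23 over 13 chondrocyte and 2.24 over 8 skeletal muscle markers, none of them called, and their part was not tested. Calls by edgeR for DEX that appeared only in loaded tibiae, such as Mmp3, Mmp14, Adamts4, Timp3 and Timp4, are thus not shown to differ from unloaded tibiae. Of these 5, DESeq2 called Mmp14 in unloaded tibiae as well, as given above.

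Partner genes of these proteases were counted in 4 lists. Of 15 substrate genes tested, 11 were lower and 0 higher with DEX in loaded tibiae, and 6 were lower in unloaded tibiae, against 8.35% and 3.99% of all genes tested that were lower in these comparisons. Aggrecan (Acan, log2FC = -3.23, edgeR adjusted p = 0.000344), fibrillin (Fbn1, log2FC = -1.94, edgeR adjusted p = 0.000670), periostin (Postn, log2FC = -2.25, edgeR adjusted p = 0.000755) and the collagen genes Col3a1 (log2FC = -2.66, edgeR adjusted p = 0.00156) and Col2a1 (log2FC = -3.69, edgeR adjusted p = 0.00188) had the lowest adjusted p-values in loaded tibiae. Of the 11 lower genes, 5 are also among the cell type markers above, namely Acan, Col2a1, Postn, Col1a1 and Col1a2. Of 8 genes of the plasmin and proprotein convertase systems tested in loaded tibiae, which activate MMP precursors or control that step, 4 were lower, against the same 8.35% of all genes. Among them were the convertases Pcsk5 (log2FC = -1.28, edgeR adjusted p = 0.00327) and Pcsk6 (log2FC = -1.07, edgeR adjusted p = 0.00352) and the serine protease inhibitor gene Serpine2 (log2FC = -0.53, edgeR adjusted p = 0.0290). In unloaded tibiae 9 of that list were tested, and Pcsk6 was lower (log2FC = -1.17, edgeR adjusted p = 0.0104) and the urokinase receptor gene Plaur higher (log2FC = 1.47, edgeR adjusted p = 0.0151).

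Of 14 genes of other inhibitors, receptors and cofactors, 4 were lower with DEX in loaded tibiae, against 8.35% of all genes. Pcolce, the enhancer of procollagen C-proteinase, had log2FC = -1.58, edgeR adjusted p = 0.000351, and Reck, a membrane-anchored MMP inhibitor, had log2FC = -0.54, edgeR adjusted p = 0.0405. Adamtsl3 (log2FC = -1.08, edgeR adjusted p = 0.0130) and the serine protease inhibitor gene Tfpi2 (log2FC = -1.29, edgeR adjusted p = 0.0256) were the others. Pcolce and Reck were lower in unloaded tibiae as well, with log2FC = -1.29, edgeR adjusted p = 0.00779 and log2FC = -0.50, edgeR adjusted p = 0.0341. Among 9 tested ADAM genes, the membrane-bound relatives of ADAMTS, Adam12 (log2FC = -2.09, edgeR adjusted p = 0.000152), Adam19 (log2FC = -0.50, edgeR adjusted p = 0.0241), Adam17 (log2FC = -0.43, edgeR adjusted p = 0.0331) and Adam9 (log2FC = -0.51, edgeR adjusted p = 0.0472) were lower and Adam33 (log2FC = 0.77, edgeR adjusted p = 0.0317) was higher in loaded tibiae, where 8.35% of all genes were lower and 12.9% higher. Only Adam12 of these was called in unloaded tibiae (log2FC = -1.62, edgeR adjusted p = 0.0106). With loading, in vehicle-treated or DEX-treated mice, and for the interaction, edgeR called no gene of the 4 lists.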

How the data were processed

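RNA was measured by RNA-seq in 20 tibia libraries. The authors deposited expected counts per gene (RSEM estimates, not scaled for library size), made with STAR 2.7.10a and RSEM 1.2.28 on GRCm38 per the submitters' processing notes. Reads that fit several genes are shared out by RSEM, so each library had fractional values (10.6% to 14.0% of its genes), which were rounded to whole numbers. Groups came from the sample labels, and unloaded DEX replicate 4 was left out. The 5 comparisons were fitted over the whole table in R 4.3.3 with the edgeR 4.0.16 quasi-likelihood F test after filterByExpr and TMM, and p-values were adjusted by Benjamini-Hochberg (threshold 0.05). SE is the absolute log2FC over the square root of F. DESeq2 1.42.0 and the settings of the closing section were alternatives, and scripts were tested on simulated data. CPM used TMM factors over all 20 libraries. Squared differences between replicates were at least 8.59 times counting error. Replicate numbers were not treated as pairs. Positions and exon lengths are from GENCODE M21, promoters from RefSeq. The members, the gene lists, the comparisons and the tests were chosen with earlier results of these data known. Values in every library are given for the 12 called genes with the lowest adjusted p, for the 3 genes with the lowest p in comparisons without a call, and for Mmp2, Mmp3, Mmp13, Mmp14, the 4 Timp genes, Adamts1, Adamts4 and Adamts5. Partner genes are named where called, at most 5 a list, and 1 of them is not reported here.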

Additional observations from a re-analysis of the deposited data

Results flagged for a closer look

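Single libraries stood far from the rest of their group, by Dixon's test at the 95% level, in 11 of the 128 combinations of the 32 genes with the 4 groups, and chance flags about 1 in 20. In unloaded vehicle tibiae, replicate 4 was the highest for Adamts12 (49.3 CPM, others 20.9 to 27.6 CPM), Adamts4 (23.8 CPM, others 5.30 to 10.01 CPM) and Mmp17 (3.56 CPM, others 2.19 to 2.52 CPM). Replicate 1 of the same group was the lowest for Mmp16 (29.2 CPM, others 50.3 to 57.3 CPM). In unloaded DEX tibiae, replicate 1 was the highest for Adamts12 (31.5 CPM, others 17.7 to 20.01 CPM), Adamts16 (3.50 CPM, others 0.789 to 0.988 CPM) and Mmp28 (10.7 CPM, others 8.52 to 8.79 CPM). Replicate 5 was the highest for Adamts20 (8.24 CPM, others 2.14 to 3.02 CPM) and Adamts8 (12.6 CPM, others 2.84 to 3.14 CPM). In loaded DEX tibiae, replicate 4 was the highest for Adamts16 (5.04 CPM, others 1.08 to 1.47 CPM) and Mmp12 (6.61 CPM, others 1.37 to 2.15 CPM). This library had the lowest total counts of the 20, and the part of depth in these values was not tested.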

How the results depend on the processing

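In loaded tibiae, 17 of the 32 genes were called for DEX, beside 4206 of all 19780 genes tested. In the libraries of the block fit without the block, 10 of the 32 and 1120 of 19833 genes were called. With background reads as a covariate, 1 of the 32 and 31 of 19780 genes were called, and Adamts10 (log2FC = 0.16) and Mmp12 (-0.44) changed sign. Leaving out each library in turn gave 15 to 19 calls among the 32, beside 2696 of 21151 to 5822 of 20773 genes. There were 15 without loaded DEX replicate 4, where Mmp11 and Adamts10 were lost. Unadjusted p gave 21. The remaining settings gave 12 (replicate block, 2326 of 19833 genes) to 20 (all 4 groups in the same model, 8446 of 23653 genes). In unloaded tibiae, 8 of the 32 genes were called, beside 1351 of all 19738 genes tested, and 13 passed by unadjusted p. In the libraries of the block fit without the block, 4 of 31 members tested and 566 of 19791 genes were called. Leaving out each library gave 1 to 9 calls, the lowest without unloaded DEX replicate 3, beside 129 of 20368 to 1867 of 19450 genes. The remaining settings, apart from the block, gave 7 (all 4 groups in the same model, 1597 of 23653 genes) to 10 (unloaded DEX replicate 4 included, 2922 of 19271 genes). For loading in vehicle-treated mice, DESeq2 called 5 of the 32 genes and 143 of all 17982. Without a count filter, edgeR called 1 (Mmp3) and 50 of all 42708 genes. By unadjusted p, 12 passed in the main fit. Loading in DEX-treated mice (5) and the interaction (10) gave values above 0 by unadjusted p only. Leaving out each library gave 0 calls in these 3 comparisons. Called genes kept their direction and call with DESeq2, with DESeq2's size factors and with the filter of 10 counts in 5 libraries. Causes of the changes were not tested.

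Replicate numbers share no stated mouse, and correlations of same-numbered libraries ran from -0.301 to 0.246 between the vehicle groups and from 0.0295 to 0.357 between the DEX groups, so the numbers were not taken as pairs. Over 4 pairs of groups, a library correlated best with its own number in 8 of 34 cases. With the replicate block, 12 of the 32 genes were called for DEX in loaded tibiae, beside 2326 of 19833 genes. Of the 12, 1 was higher, which was Timp4, and 11 were lower, while Timp3, Mmp25 and Adamts20 were not called. The same libraries without the block gave 1 higher and 9 lower genes, beside 1120 of 19833. In unloaded tibiae 2 of 31 members tested (Mmp25 and Mmp19) and 520 of 19791 genes were called with the block, and 0 members in the other 3 comparisons. Counts were low for Mmp3, with 4 to 29 outside loaded vehicle libraries, and for the 9 genes below the count filter.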

Other observations

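Unloaded DEX replicate 4, which was left out of the tests, had 175 CPM for Mmp2, 239.6 CPM for Mmp13, 157 CPM for Mmp14 and 10.4 CPM for Mmp16. Mmp3 was at 3.06 CPM there, above the 0.618 to 1.69 CPM of the other 4 unloaded DEX libraries, and Mmp13 was above their 139 to 198 CPM. Timp1, Timp2, Timp3 and Timp4 were at 7.49, 276, 349.5 and 19.5 CPM, of which the Timp4 value exceeded the 8.45 to 16.9 CPM of the other 4 libraries.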
